A study of Mus musculus with 12 samples.

Results

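Auxin-treated cells of the AID-JARID2 line were compared with untreated cells of the same line at the cardiac precursor stage, across every measurable gene. AID-JARID2 is a C57BL/6 mouse embryonic stem cell line in which JARID2 carries an auxin-inducible degron and which also carries Tir1, the plant receptor that sends a tagged protein to the proteasome when auxin is present. The comparison took 4 of the 12 libraries of the series, 2 from cells given 50 µM indole-3-acetic acid, an auxin analog, and 2 from untreated cells. Both groups passed through 48 h as embryoid bodies, 43 h of reaggregation with VEGF, Activin A and BMP4, and 32 h as a monolayer with VEGF, basic FGF and FGF10. The labels give neither the start nor the length of the auxin treatment, and they do not say whether the line is a single clone. Of 35856 rows of the expression table, 14137 genes had at least 1 TPM (a level scaled for transcript length and library size) in at least 2 of the 4 libraries and were tested.

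Polycomb repressive complex 2 (PRC2) methylates histone H3 at genes that a cell keeps silent, among them many regulators of development. JARID2 is an accessory subunit, present with AEBP2 in one form of the complex, and helps to bring the enzyme to its targets. In mice it is known for roles in heart development and in the exit of stem cells from pluripotency. The tag is present in the untreated cells too, and no untagged cells were given auxin. Effects of auxin in this line that do not pass through JARID2, and other effects particular to this line, cannot be told apart from loss of JARID2. In the MTF2-AID line, given the same 50 µM auxin in the same culture, 7 of the 14137 genes passed the test used here (0.0495%).

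The table implied at least 14391087 and 16911220 assigned reads in the auxin libraries and at least 13280549 and 12032515 in the untreated ones, within the range of 10138920 to 17173072 over the series. Between the 2 libraries of a group the median absolute difference in log2(TPM + 1) was 0.0851 with auxin and 0.0927 untreated. The series calls the libraries of a group biological replicates. The p-values and standard errors measure only the spread between such libraries, pooled per gene over the 6 groups of the series. They are therefore not the spread of the AID-JARID2 libraries alone. In bulk RNA, fewer cells of a type and less RNA per cell cannot be told apart, and this holds for every level that follows.

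With auxin, most tested genes of the core pluripotency, epiblast and epithelial lists were higher, and most of those of the lists of cardiac progenitor factors, lateral mesoderm, mesenchymal transition, and collagens and laminins were lower. Lists share members, so they are not separate counts. Hand1, Hand2 and Bmp4 are in the cardiac and the lateral list, and Snai2, Twist1, Twist2 and Vim in the lateral and the mesenchymal list. In limma, 5720 of the 14137 genes passed an adjusted p of 0.05, which is 40.5% of those tested. Of these, 3052 were higher with auxin (21.6%) and 2668 were lower (18.9%). At least 2-fold differences numbered 888 higher (6.28%) and 635 lower (4.49%). Most calls were under 2-fold: 1134 higher and 1089 lower genes had an absolute log2 fold change under 0.5, and 1030 higher and 944 lower genes lay between 0.5 and 1. At the other end 31 higher and 50 lower genes reached 3. Genes at least 2-fold higher held 3.14% and 3.25% of the summed TPM of the auxin libraries, against 0.914% and 0.891% of the untreated ones. Genes at least 2-fold lower held 1.15% and 1.10% with auxin, against 4.28% and 4.31% untreated. Over all genes tested the median fold change was 0.01 on the log2 scale. Fold changes are auxin over untreated on the log2(TPM + 1) scale, with the standard error after ±, and understate the change of low genes. The filter was passed by 459 genes only through the auxin libraries and by 289 only through the untreated ones, and such a gene could lie in 1 direction only; lists that hold more than 2 of them are described with their number. In 75.8% of all genes tested the 2 auxin libraries did not overlap the 2 untreated ones, and since most genes were named on that condition, a lack of overlap is no support for them.

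**Figure D1:**
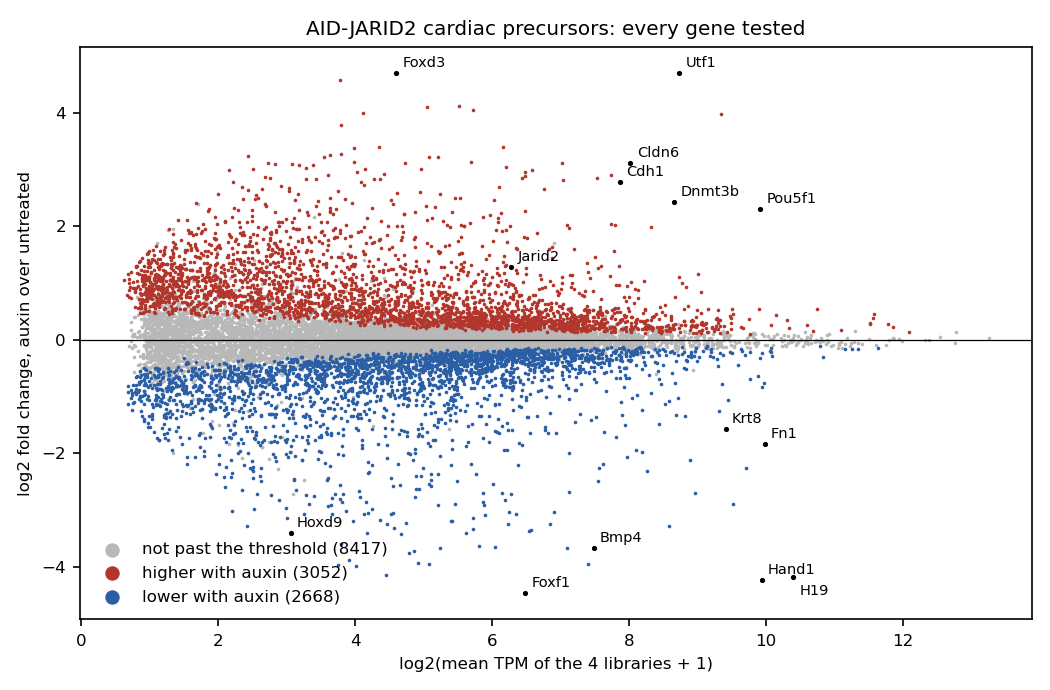
Log2 fold change of auxin over untreated (vertical axis) against log2 of the mean TPM of the 4 AID-JARID2 libraries plus 1 (horizontal axis), 1 point per gene tested, red where higher with auxin (3052), blue where lower (2668) and grey where the threshold was not passed (8417). Utf1 and Foxd3 lie at the top, and Hand1, H19 and Foxf1 at the bottom.

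The markers of the cells that the culture could hold were read first. Of 14 markers of cardiac precursors, 13 were tested, 0 were higher and 11 were lower, and their TPM summed to 523 and 451 with auxin, against 2825 and 2729 untreated. Myocd among them passed the filter only through the untreated libraries, so it could only be lower. Hand1 alone, at 107 and 90.0 TPM with auxin, against 1884 and 1832 TPM untreated, made up most of the untreated sum. Tbx5 stayed under 0.3 TPM in all 4 libraries, and Nkx2-5 had 1.67 and 1.25 TPM with auxin, against 1.47 and 1.65 TPM untreated, so these defining factors of heart cells were at or near the lower limit in both groups. Of 7 markers of pluripotent cells, 6 were tested and all 6 were higher, with sums of 2606 and 2612 TPM with auxin, against 408 and 391 TPM untreated. Zfp42 among them passed the filter only through the auxin libraries, so it could only be higher. Esrrb, the marker not tested, was under 1 TPM in every library. Markers of other lineages differed in both directions in sum. Those of surface ectoderm summed to 42.1 and 45.1 TPM with auxin, against 11.6 and 12.5 TPM untreated, mostly from Cldn4. Those of endoderm summed to 1.87 and 2.54 TPM with auxin, mostly from Foxa2, against 0.321 and 0.577 TPM untreated. Foxa2 also passed the filter only through the auxin libraries. Neural markers summed to 74.5 and 81.1 TPM with auxin, against 14.2 and 11.9 TPM untreated, nearly all from Tubb3. Those of endothelium summed to 9.98 and 9.32 TPM with auxin, against 31.7 and 36.7 TPM untreated. Blood markers summed to 0.283 and 0.249 TPM with auxin, against 1.31 and 0.969 TPM untreated, and trophoblast markers stayed under 1 TPM in all 4 libraries. How far a change in the share of pluripotent or other cells enters the differences that follow was not tested.

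Among the subunits of PRC2 itself, the targeted gene differed most. Jarid2 (chr13:44729474-44921643 on mm10, as are all positions, from GENCODE vM21) had 104 and 113 TPM with auxin, against 45.3 and 43.5 TPM untreated (log2 fold change 1.27 ± 0.12, adjusted p = 1.50e-05), so its RNA rose; the degron acts on the protein, and the RNA does not measure its depletion. Of the 6 core subunits, Eed (log2 fold change 0.26) and Suz12 (log2 fold change 0.25) were higher and Ezh1 was lower (log2 fold change -0.45), all by less than 2-fold. Ezh2, the main catalytic subunit, had 108 and 115 TPM with auxin, against 119 and 130.0 TPM untreated (log2 fold change -0.16 ± 0.062, adjusted p = 0.0654), and missed the threshold. Aebp2, the partner of JARID2, was higher (log2 fold change 0.36), and Phf1, a subunit of the other form of PRC2, was lower (log2 fold change -0.68 ± 0.082), whereas Mtf2 had 29.4 and 31.4 TPM with auxin, against 28.5 and 31.6 TPM untreated (adjusted p = 0.915). The calls of Eed and Aebp2 were lost whichever of the 4 libraries was left out (log2 fold changes from 0.25 and 0.31). The call of Ezh1 was lost without the second auxin or the second untreated library (log2 fold changes -0.36 and -0.35). That of Suz12 was lost without the second auxin or the first untreated library (log2 fold changes 0.199 and 0.198).

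Of 21 subunits of PRC1, the Polycomb complex that ubiquitinates histone H2A, 7 were higher and 9 were lower (median -0.11). Within the complex the CBX subunits, which read the methyl mark, differed in direction. Cbx7, the main one of embryonic stem cells, had 42.7 and 44.0 TPM with auxin, against 13.7 and 12.9 TPM untreated (log2 fold change 1.63 ± 0.12, adjusted p = 2.57e-06), whereas Cbx2 had 54.8 and 55.2 TPM with auxin, against 89.7 and 89.2 TPM untreated (log2 fold change -0.69 ± 0.077, adjusted p = 5.56e-05). The structural subunit Phc1 was higher as well, at 324 and 329 TPM with auxin, against 110.0 and 110.0 TPM untreated. Of 8 DNA methyltransferase and TET genes tested, 3 were higher and 2 were lower. Dnmt3b (chr2:153649450-153687730), the de novo enzyme of the epiblast, reached 678 and 679 TPM with auxin, against 127 and 124 TPM untreated (log2 fold change 2.42 ± 0.084, adjusted p = 1.34e-08). The oxidase gene Tet1 rose and its relative Tet2 fell, with log2 fold changes of 0.99 ± 0.23 and -1.12 ± 0.26; the call of Tet2 was lost without 1 untreated library (adjusted p = 0.0513). The maintenance enzyme Dnmt1 had 162 and 159 TPM with auxin, against 178 and 177 TPM untreated (adjusted p = 0.156).

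Genes of pluripotent cells rose. Of 15 core pluripotency genes tested, 12 were higher and 0 were lower, with a median log2 fold change of 1.08, and 3 of the 15 passed the filter only through the auxin libraries. Pou5f1 (chr17:35506018-35510772), the factor OCT4, had 1599.8 and 1601 TPM with auxin, against 335 and 316 TPM untreated (log2 fold change 2.29 ± 0.10, adjusted p = 7.60e-08). Nanog, another of the core factors, had 81.8 and 76.6 TPM with auxin, against 32.9 and 34.6 TPM untreated (log2 fold change 1.21 ± 0.15, adjusted p = 0.000131). L1td1, an RNA-binding protein of stem cells, had 357 and 396 TPM with auxin, against 48.9 and 50.1 TPM untreated (log2 fold change 2.90 ± 0.10, adjusted p = 1.30e-08). Lin28a, which blocks let-7 maturation and is expressed in later embryonic cells too, had 342 and 358 TPM with auxin, against 358 and 362 TPM untreated (adjusted p = 0.549).

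The epiblast that follows the naive state has its own genes, and their list had a larger median than the core list. Of 20 formative and primed epiblast genes tested, 17 were higher and 1 was lower, with a median of 1.73. Pou3f1, a POU factor of the epiblast, had 162 and 178 TPM with auxin, against 21.2 and 19.9 TPM untreated (log2 fold change 2.98 ± 0.093, adjusted p = 6.52e-09). Otx2, a factor of the epiblast and the anterior embryo, had 61.3 and 65.5 TPM with auxin, against 9.83 and 9.84 TPM untreated (log2 fold change 2.57 ± 0.13, adjusted p = 2.02e-07). Zic2 and Zic5, zinc finger factors of the same stage, were higher by 2.02 ± 0.086 and 2.21 ± 0.19 on the log2 scale. The member that fell was Cdh2, the N-cadherin of mesenchymal cells (log2 fold change -0.85 ± 0.16).

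The naive list was mixed, with 8 of 13 tested genes higher and 4 lower (median 0.82), and with 2 kept through the auxin libraries only and 1 through the untreated ones only. Klf5 rose to 57.1 and 66.5 TPM with auxin, against 14.3 and 13.2 TPM untreated (log2 fold change 2.09 ± 0.12, adjusted p = 5.60e-07), and Fgf4, a ligand that naive cells secrete, to 13.7 and 15.5 TPM, against 3.50 and 3.99 TPM untreated (log2 fold change 1.72 ± 0.20, adjusted p = 6.32e-05). Klf4 fell to 2.16 and 2.96 TPM, against 10.3 and 11.98 TPM untreated (log2 fold change -1.78 ± 0.18, adjusted p = 2.27e-05), and Prdm14, which represses epiblast genes in naive cells, fell by 1.64 ± 0.21 on the log2 scale, as the gene kept through the untreated libraries only. Tbx3 also fell, to 14.5 and 12.2 TPM with auxin, against 135 and 136 TPM untreated (log2 fold change -3.25 ± 0.14, adjusted p = 6.79e-08); it serves in heart and limb mesoderm as well as in naive cells. Esrrb, Nr0b1, Dppa3, Tcl1 and Nr5a2, 5 further naive genes, did not reach 1 TPM in at least 2 libraries.

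PRC2 is known to gather at promoters rich in CG dinucleotides, so the promoters of 2 genes among the largest increases and 2 among the largest decreases are shown, with each CG in capitals. The windows are those of RefSeq on GRCm38.p6 (mm10), from 250 bases before to 50 bases after the annotated start, read along the gene from 5′ to 3′. Utf1 lies on the plus strand (chr7:139943606-139943905), Foxd3 on the plus strand (chr4:99656049-99656348), Fendrr on the minus strand (chr8:121083061-121083360) and Bmp4 on the minus strand (chr14:46390620-46390919).
Utf1: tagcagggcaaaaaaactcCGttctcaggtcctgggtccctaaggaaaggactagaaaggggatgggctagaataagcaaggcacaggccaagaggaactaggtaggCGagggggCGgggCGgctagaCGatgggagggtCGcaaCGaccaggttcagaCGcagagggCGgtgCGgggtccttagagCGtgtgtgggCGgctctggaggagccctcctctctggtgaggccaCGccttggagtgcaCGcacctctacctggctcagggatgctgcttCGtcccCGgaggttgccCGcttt
Foxd3: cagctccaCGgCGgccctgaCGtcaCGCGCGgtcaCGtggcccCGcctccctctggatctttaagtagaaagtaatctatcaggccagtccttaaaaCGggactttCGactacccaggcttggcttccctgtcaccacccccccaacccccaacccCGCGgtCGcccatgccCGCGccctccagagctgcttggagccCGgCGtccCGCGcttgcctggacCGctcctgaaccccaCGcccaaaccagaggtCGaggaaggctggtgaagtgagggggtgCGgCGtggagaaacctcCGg
Fendrr: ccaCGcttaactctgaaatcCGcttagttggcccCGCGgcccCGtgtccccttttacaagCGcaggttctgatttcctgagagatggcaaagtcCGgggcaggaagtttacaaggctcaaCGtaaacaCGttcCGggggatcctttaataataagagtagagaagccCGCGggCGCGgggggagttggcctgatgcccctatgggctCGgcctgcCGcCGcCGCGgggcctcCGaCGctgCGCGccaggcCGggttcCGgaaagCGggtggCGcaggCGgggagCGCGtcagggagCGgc
Bmp4: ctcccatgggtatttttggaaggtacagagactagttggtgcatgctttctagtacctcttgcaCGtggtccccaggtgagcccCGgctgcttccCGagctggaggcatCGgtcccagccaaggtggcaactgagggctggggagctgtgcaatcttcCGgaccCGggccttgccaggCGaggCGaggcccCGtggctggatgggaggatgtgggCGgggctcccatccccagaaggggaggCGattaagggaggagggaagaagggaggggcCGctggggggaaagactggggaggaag
Utf1, a chromatin factor of stem cells, had 816 and 823 TPM with auxin, against 31.7 and 29.8 TPM untreated (log2 fold change 4.69 ± 0.10, adjusted p = 9.47e-10). Foxd3, a forkhead factor of pluripotent cells and neural crest, had 44.3 and 46.9 TPM, against 0.974 and 0.637 TPM untreated (log2 fold change 4.70 ± 0.19, adjusted p = 4.12e-08), and was kept through the auxin libraries only. Fendrr, a long noncoding RNA next to Foxf1 in lateral mesoderm, had 1.07 and 0.781 TPM with auxin, against 29.6 and 29.2 TPM untreated (log2 fold change -3.98 ± 0.13, adjusted p = 8.28e-09), and Bmp4 is described with its pathway. Utf1 and Foxd3, which rose, held 17 and 25 CG dinucleotides, and Fendrr and Bmp4, which fell, held 31 and 12. All 4 lie above the median of 7 over the 32851 mouse windows of the same length, whose quartiles are 3 and 20, and 5.43% of windows held none. Those windows were not limited to the genes tested, and whether PRC2 binds the 4 chosen promoters was not tested. The GC box GGGCGG, searched on both strands, was found in the windows of Utf1 and Bmp4 and in 35.7% of all windows. Promoters were matched for 639 of the 888 genes at least 2-fold higher (72%) and 430 of the 635 at least 2-fold lower (67.7%), too few for a comparison between the sets.

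Epithelial genes rose with the epiblast genes. Of 25 genes of surface ectoderm and epithelium tested, 20 were higher and 4 were lower (median 1.77), with 1 kept through the auxin libraries only and 1 through the untreated ones only. Cdh1 (chr8:106603351-106670246), which encodes E-cadherin, had 393 and 417 TPM with auxin, against 62.2 and 54.8 TPM untreated (log2 fold change 2.77 ± 0.14, adjusted p = 1.78e-07). The tight junction gene Cldn6 had 458 and 469 TPM with auxin, against 57.8 and 48.6 TPM untreated (log2 fold change 3.11 ± 0.15, adjusted p = 1.58e-07). Cldn7 had 119 and 118 TPM with auxin, against 19.6 and 15.6 TPM untreated (log2 fold change 2.69 ± 0.27, adjusted p = 2.44e-05). The adhesion gene Epcam, at 333 and 350.3 TPM with auxin, against 83.4 and 82.1 TPM untreated, was higher too. Regulators of epithelial identity moved with them: the splicing factor Esrp1 was higher by 1.99 ± 0.13 and the transcription factor Grhl2 by 1.96 ± 0.15, both on the log2 scale.

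The keratin pair of simple epithelia moved the other way. Krt8 (chr15:101996698-102004482) had 335 and 345 TPM with auxin, against 1000.4 and 1038 TPM untreated (log2 fold change -1.58 ± 0.042, adjusted p = 2.03e-09), and its partner Krt18 had 360.4 and 384 TPM, against 862 and 927 TPM untreated (log2 fold change -1.26 ± 0.060, adjusted p = 1.08e-07). The desmosome gene Dsp fell by 1.13 ± 0.17 on the log2 scale, and Cldn11, a claudin known from myelin and testis, which was kept through the untreated libraries only, was under 0.3 TPM in both auxin libraries, against 6.99 and 5.77 TPM untreated. Krt5 and Trp63, which define stratified epithelium, were under 0.1 TPM in every library. Cldn4 and Grhl3, the other markers of surface ectoderm, were higher, at 38.2 and 41.3 TPM with auxin, against 9.56 and 10.2 TPM untreated, and at 3.82 and 3.67 TPM, against 2.07 and 2.25 TPM untreated, although the call of Grhl3 was lost whichever of the 4 libraries was left out (adjusted p up to 0.0861).

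Mesenchymal genes fell. Of 18 genes of the mesenchymal transition tested, 1 was higher and 15 were lower, with a median of -0.93. Snai2, a repressor of epithelial genes, had 2.82 and 3.34 TPM with auxin, against 34.8 and 37.1 TPM untreated (log2 fold change -3.18 ± 0.11, adjusted p = 1.64e-08). Twist2 had 2.53 and 3.43 TPM with auxin, against 24.7 and 20.2 TPM untreated (log2 fold change -2.56 ± 0.14, adjusted p = 2.75e-07). Zeb2, another repressor of Cdh1, fell to 4.11 and 4.47 TPM, against 13.2 and 14.7 TPM untreated (log2 fold change -1.498 ± 0.22, adjusted p = 0.000381). Fibronectin, Fn1 (chr1:71585520-71653200), one of the abundant transcripts of the untreated cells, had 452 and 429 TPM with auxin, against 1538 and 1616 TPM untreated (log2 fold change -1.84 ± 0.18, adjusted p = 1.90e-05). Tgfbr2, the receptor of TGF-beta, was the member that rose (log2 fold change 0.58 ± 0.20), a call lost whichever of the 4 libraries was left out (adjusted p up to 0.226).

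Of 26 collagen, laminin and other basement membrane genes tested, 2 were higher and 17 were lower (median -1.002). Col4a1 and Col4a2, which lie head to head and encode the chains of basement membrane collagen, fell by 0.97 ± 0.11 and 1.51 ± 0.089 on the log2 scale. Lama4, a laminin chain of vessels and muscle, fell to 2.11 and 2.83 TPM with auxin, against 21.7 and 21.7 TPM untreated (log2 fold change -2.72 ± 0.15, adjusted p = 3.35e-07). Lama5, a laminin chain of epithelia, rose to 115 and 115 TPM, against 69.1 and 69.0 TPM untreated (log2 fold change 0.73 ± 0.18, adjusted p = 0.00824). The shared chain gene Lamc1 had 84.5 and 87.3 TPM with auxin, against 86.4 and 87.8 TPM untreated (adjusted p = 0.94).

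Of 26 cardiac progenitor factors tested, 1 was higher and 21 were lower, with a median of -1.36. Hand2 (chr8:57320983-57324633), a factor of the second heart field, had 4.53 and 3.83 TPM with auxin, against 51.6 and 43.5 TPM untreated (log2 fold change -3.23 ± 0.11, adjusted p = 8.40e-09). Tbx20, a T-box factor of early heart, had 3.55 and 2.99 TPM, against 30.8 and 34.3 TPM untreated (log2 fold change -2.98 ± 0.16, adjusted p = 2.56e-07). Smarcd3, the heart-enriched subunit of the BAF remodelling complex, had 5.28 and 3.04 TPM with auxin, against 41.8 and 39.5 TPM untreated (log2 fold change -3.05 ± 0.17, adjusted p = 3.10e-07). Gata4 fell to 29.2 and 23.1 TPM with auxin, against 89.3 and 88.1 TPM untreated (log2 fold change -1.73 ± 0.11, adjusted p = 9.35e-07), and Isl1, a marker of the second heart field, to 8.97 and 6.00 TPM, against 31.1 and 37.8 TPM untreated (log2 fold change -2.08 ± 0.15, adjusted p = 2.71e-06). Mef2c stood at 2.12 and 1.86 TPM with auxin, against 6.03 and 6.46 TPM untreated (log2 fold change -1.28 ± 0.12, adjusted p = 1.22e-05). The member that rose was Hopx, a homeodomain protein that lacks DNA binding, at 19.9 and 20.1 TPM with auxin, against 2.93 and 2.57 TPM untreated (log2 fold change 2.49 ± 0.15, adjusted p = 6.73e-07).

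Contractile genes fell more often than they rose. Of 19 tested, 5 were higher and 12 were lower (median -0.67), with 1 kept through the auxin libraries only and 2 through the untreated ones only. Tnnt2, the cardiac troponin T, had 2.72 and 2.81 TPM with auxin, against 22.0 and 17.2 TPM untreated (log2 fold change -2.44 ± 0.16, adjusted p = 1.06e-06). Tnni1, the troponin I of the embryonic heart, had 3.40 and 3.64 TPM, against 28.8 and 26.6 TPM untreated (log2 fold change -2.66 ± 0.10, adjusted p = 1.95e-08). Myl7, an atrial myosin light chain, had 14.7 and 10.1 TPM with auxin, against 42.1 and 37.3 TPM untreated (log2 fold change -1.62 ± 0.22, adjusted p = 0.000203). Actc1, the cardiac actin, had 33.4 and 32.8 TPM, against 48.5 and 44.0 TPM untreated (adjusted p = 0.106) and missed the threshold. Cnn1, a calponin of smooth muscle, went against the list, at 63.7 and 63.7 TPM with auxin, against 26.1 and 26.9 TPM untreated (log2 fold change 1.23 ± 0.11, adjusted p = 1.07e-05), while the smooth muscle actin Acta2 fell (log2 fold change -1.93 ± 0.14).

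The list of lateral and extraembryonic mesoderm had the lowest median of the lists with at least 20 members tested, -2.69, with 2 of 23 genes higher and 20 lower. Kdr, the VEGF receptor that marks early cardiovascular mesoderm, had 19.2 and 15.0 TPM with auxin, against 127 and 127 TPM untreated (log2 fold change -2.83 ± 0.15, adjusted p = 2.98e-07). Pdgfra, its counterpart on cardiac and paraxial mesoderm, had 14.9 and 12.9 TPM, against 46.1 and 47.9 TPM untreated (log2 fold change -1.69 ± 0.14, adjusted p = 7.33e-06). The homeobox genes Msx1 and Msx2, targets of BMP signals, had 38.6 and 34.1 TPM and 23.5 and 18.8 TPM with auxin, against 249 and 229 TPM and 208 and 207 TPM untreated. Flt1, another VEGF receptor, and Mab21l2 rose, by 0.96 ± 0.21 and 1.46 ± 0.18 on the log2 scale, Mab21l2 being kept through the auxin libraries only.

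**Figure D2:**
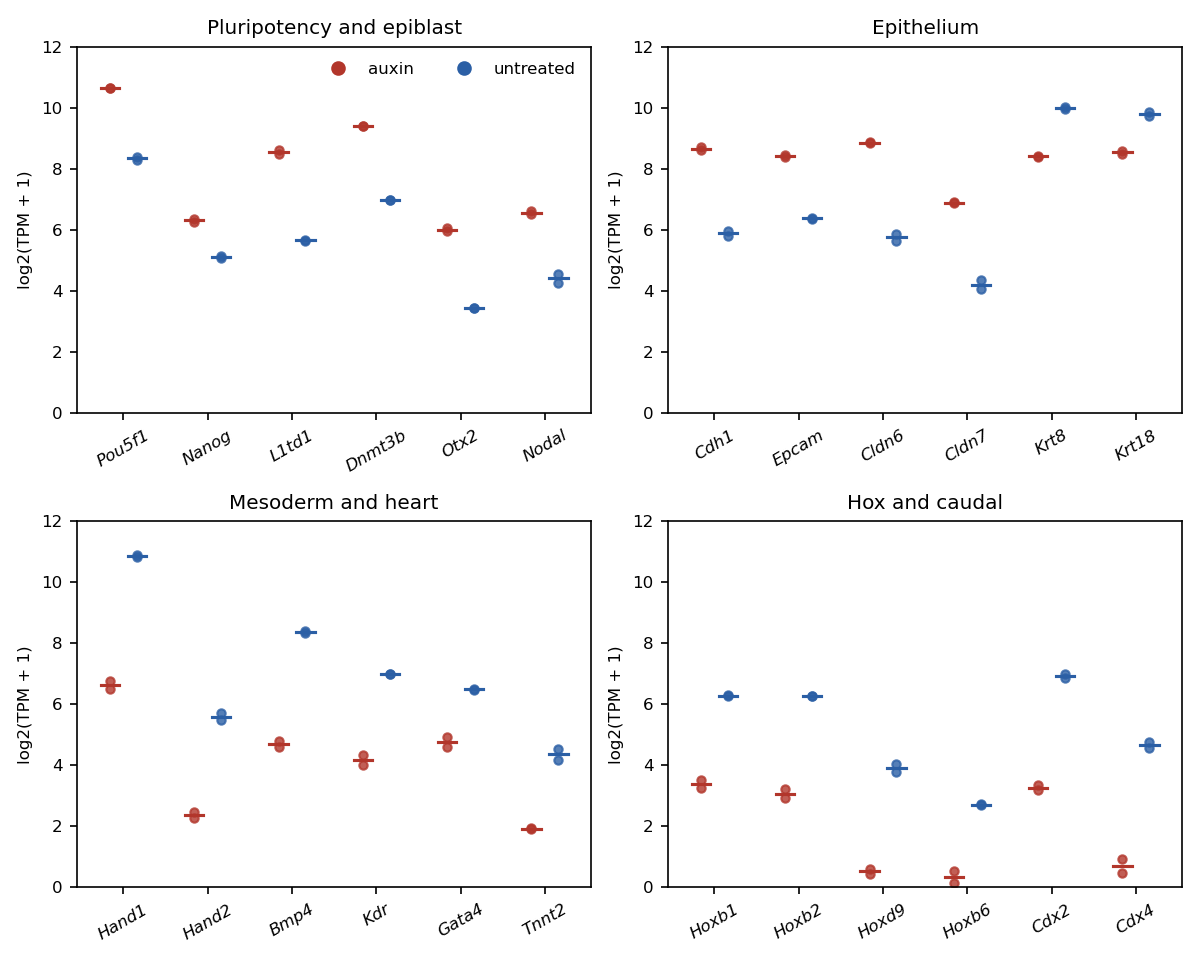
Log2(TPM + 1) of 24 genes in each AID-JARID2 library (points; the bars are group means), auxin in red at the left of each pair and untreated in blue at the right. Pou5f1 and Cdh1 were higher in both auxin libraries, and Krt8, Hand1, Bmp4 and the Hox and caudal genes were higher in both untreated ones.

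The primitive streak list did not follow either side, with 6 of 20 tested genes higher and 7 lower (median 0.13). T, the brachyury factor of the streak, had 501 and 517 TPM with auxin, against 307 and 297 TPM untreated (log2 fold change 0.75 ± 0.10, adjusted p = 0.00017). Eomes and Mixl1, 2 other streak factors, had 180.3 and 169 TPM and 200.5 and 179 TPM with auxin, against 149 and 144 TPM and 167 and 176 TPM untreated, and missed the threshold (adjusted p = 0.154 and 0.472). Mesp1, which follows them in cardiac mesoderm, had 278 and 242 TPM with auxin, against 461 and 429 TPM untreated (log2 fold change -0.78 ± 0.14, adjusted p = 0.00156). Msgn1, a factor of presomitic mesoderm, had 58.2 and 58.2 TPM, against 185 and 185 TPM untreated (log2 fold change -1.65 ± 0.39, adjusted p = 0.00701). Evx1, a homeobox gene of the posterior streak, fell (log2 fold change -0.80 ± 0.13), and Foxa2, a factor of the anterior streak and endoderm, was listed at 0 in both untreated libraries and had 1.57 and 2.26 TPM with auxin.

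Hox genes give cells their position along the body axis and are classic Polycomb targets. Of the 39 in the table, 14 passed the filter and all 14 were lower, but 12 of these passed only through the untreated libraries and so had to be lower. The 2 that passed in both groups were Hoxb1, at 10.4 and 8.51 TPM with auxin, against 75.4 and 77.1 TPM untreated (log2 fold change -2.89 ± 0.14, adjusted p = 1.49e-07), and Hoxb2, at 8.31 and 6.57 TPM, against 75.9 and 75.7 TPM untreated (log2 fold change -3.19 ± 0.10, adjusted p = 7.45e-09). Hoxd9 was under 1 TPM in both auxin libraries, against 15.6 and 12.8 TPM untreated. The other 25 Hox genes did not reach 1 TPM in 2 libraries in either group. Cdx2 (chr5:147300805-147307270), a caudal factor that acts on Hox genes in posterior tissue, fell to 9.10 and 8.19 TPM with auxin, against 126 and 116 TPM untreated (log2 fold change -3.66 ± 0.12, adjusted p = 7.45e-09). Of 53 homeobox genes outside the Hox clusters that were tested, 15 were higher and 25 were lower (median -0.31), with 5 kept through the auxin libraries only and 4, Pitx1 among them, through the untreated ones only. Meis1, a cofactor of Hox proteins, fell to 3.99 and 2.75 TPM with auxin, against 19.9 and 18.8 TPM untreated (log2 fold change -2.23 ± 0.12, adjusted p = 3.22e-07), and Pitx1, a factor of hindlimb mesoderm, to under 0.5 TPM in both auxin libraries, against 6.00 and 6.32 TPM untreated.

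Of 28 genes of the BMP pathway tested, 8 were higher and 16 were lower, with a median of -0.68, and with 2 kept through the auxin libraries only and 1 through the untreated ones only. Among the ligands, Bmp4 (chr14:46383520-46390669) had 27.0 and 23.2 TPM with auxin, against 325 and 338 TPM untreated (log2 fold change -3.68 ± 0.066, adjusted p = 2.72e-10), Bmp2 had 6.97 and 8.39 TPM, against 63.0 and 65.3 TPM untreated (log2 fold change -2.91 ± 0.14, adjusted p = 1.03e-07). Bmp5 had 3.80 and 3.99 TPM with auxin, against 38.2 and 42.3 TPM untreated (log2 fold change -3.07 ± 0.11, adjusted p = 1.75e-08). Bmp7 fell too, by 2.48 ± 0.083 on the log2 scale. Of the receptors, Bmpr1a had 52.1 and 58.1 TPM with auxin, against 55.7 and 59.1 TPM untreated (adjusted p = 0.788), and Bmpr2 had 9.98 and 11.2 TPM, against 10.4 and 12.4 TPM untreated (adjusted p = 0.789). Smad6 and Bambi, feedback inhibitors of the pathway, fell by 2.54 ± 0.080 and 2.49 ± 0.084 on the log2 scale. The Id genes, direct targets of BMP signals in many cells, went against the list: Id1 had 568 and 623 TPM with auxin, against 325 and 298 TPM untreated (log2 fold change 0.93 ± 0.082, adjusted p = 9.35e-06), Id2 had 156 and 184 TPM, against 59.5 and 51.9 TPM untreated (log2 fold change 1.59 ± 0.10, adjusted p = 8.12e-07), and Id3 was higher by 0.53 ± 0.065 on the log2 scale. The secreted BMP antagonist Chrd was higher (log2 fold change 1.34 ± 0.20) and the antagonist Nog was lower (log2 fold change -0.86 ± 0.088).

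Of 29 FGF pathway genes tested, 13 were higher and 11 were lower (median 0.28). Among the ligands, Fgf3 had 22.1 and 17.1 TPM with auxin, against 136 and 130.1 TPM untreated (log2 fold change -2.71 ± 0.10, adjusted p = 2.36e-08). Fgf15 had 16.8 and 12.7 TPM with auxin, against 102 and 98.3 TPM untreated (log2 fold change -2.70 ± 0.10, adjusted p = 2.58e-08), whereas Fgf4 was higher as given above. Of the receptors, Fgfr2 had 2.62 and 2.27 TPM with auxin, against 21.5 and 24.6 TPM untreated (log2 fold change -2.80 ± 0.15, adjusted p = 2.32e-07), Fgfr3 had 2.49 and 1.94 TPM, against 25.7 and 24.5 TPM untreated (log2 fold change -3.03 ± 0.14, adjusted p = 1.05e-07). Fgfr1, the most abundant of them, had 152 and 149 TPM with auxin, against 322 and 321 TPM untreated (log2 fold change -1.09 ± 0.080, adjusted p = 2.67e-06). Of the feedback inhibitors that FGF signals induce, Spry1 was lower (log2 fold change -0.41 ± 0.10), a call lost without 1 untreated library (adjusted p = 0.0725). Higher were Spry4, with 66.8 and 72.8 TPM with auxin, against 14.9 and 12.8 TPM untreated (log2 fold change 2.25 ± 0.10, adjusted p = 6.38e-08), and Dusp6, with 485 and 534 TPM, against 131 and 125 TPM untreated (log2 fold change 1.98 ± 0.075, adjusted p = 2.38e-08). Etv4 and Etv5, transcription factors that FGF signals induce, were higher by 1.45 ± 0.066 and 1.13 ± 0.087 on the log2 scale.

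Of 16 genes of the NODAL and activin pathway tested, 6 were higher and 7 were lower (median -0.20). Nodal, the ligand of the epiblast and streak, had 96.5 and 91.2 TPM with auxin, against 22.4 and 18.3 TPM untreated (log2 fold change 2.15 ± 0.18, adjusted p = 7.29e-06), and its inhibitor Lefty2 had 8.89 and 8.94 TPM, against 1.87 and 3.40 TPM untreated (log2 fold change 1.48 ± 0.21, adjusted p = 0.000311). The coreceptors split: Cfc1 had 8.38 and 6.47 TPM with auxin, against 104 and 102 TPM untreated (log2 fold change -3.63 ± 0.14, adjusted p = 2.38e-08). Tdgf1 had 660.1 and 699 TPM with auxin, against 377 and 387 TPM untreated (log2 fold change 0.83 ± 0.12, adjusted p = 0.00032). Foxh1, the factor that SMAD proteins bind in this pathway, fell to 176 and 169 TPM, against 361 and 343 TPM untreated (log2 fold change -1.02 ± 0.050, adjusted p = 1.50e-07). Fst, which binds activin, rose (log2 fold change 1.64 ± 0.14).

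Of 41 WNT pathway genes tested, 13 were higher and 14 were lower (median -0.04). The ligand Wnt5a had 14.2 and 13.1 TPM with auxin, against 57.1 and 62.6 TPM untreated (log2 fold change -2.06 ± 0.12, adjusted p = 6.11e-07). The inhibitors of the pathway differed in direction. Dkk1, a secreted one, had 7.12 and 5.37 TPM with auxin, against 37.4 and 38.2 TPM untreated (log2 fold change -2.43 ± 0.12, adjusted p = 1.51e-07). Nkd1, a cytoplasmic one, had 10.1 and 7.95 TPM with auxin, against 50.9 and 52.0 TPM untreated (log2 fold change -2.40 ± 0.12, adjusted p = 1.66e-07). Notum, a lipase that inactivates WNT proteins, fell by 2.11 ± 0.14 on the log2 scale. Sfrp1, Sfrp2 and Frzb, secreted proteins that bind WNT, were higher (log2 fold changes 0.86 ± 0.15, 0.70 ± 0.094 and 0.70 ± 0.14), and Nkd2 had 5.21 and 4.14 TPM with auxin, against 4.55 and 4.40 TPM untreated (adjusted p = 0.845). Axin2, the general feedback target, fell by 0.43 ± 0.081 on the log2 scale, and Sp5, another target, was higher (log2 fold change 1.25 ± 0.27).

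In smaller pathways calls fell in both directions, and of all genes tested 21.6% were higher and 18.9% lower. Of 19 Notch pathway genes tested, 8 were higher and 8 were lower; the ligand Jag2 rose to 34.8 and 32.4 TPM with auxin, against 8.67 and 8.72 TPM untreated (log2 fold change 1.84 ± 0.11, adjusted p = 5.74e-07), and the target Hes1 fell to 51.5 and 48.4 TPM, against 135 and 125 TPM untreated (log2 fold change -1.36 ± 0.090, adjusted p = 1.21e-06). Of 14 retinoic acid genes tested, 2 were higher and 5 were lower, among them the synthesis enzyme Aldh1a2, which fell to 1.02 and 1.62 TPM, against 5.87 and 6.48 TPM untreated (log2 fold change -1.64 ± 0.17, adjusted p = 2.71e-05). Of 10 hedgehog genes tested, 2 were higher and 3 were lower. Gli2, an effector, and Boc, a coreceptor, fell by 1.58 ± 0.14 and 1.99 ± 0.13 (log2 fold changes), and the ligands did not reach the filter.

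Guidance and chemokine receptors steer migrating cells. Of 37 tested, 11 were higher and 19 were lower (median -0.63). Nrp1, a receptor of semaphorins and VEGF, had 9.02 and 7.89 TPM with auxin, against 90.0 and 99.2 TPM untreated (log2 fold change -3.34 ± 0.10, adjusted p = 4.37e-09). The netrin receptor Unc5c had 5.16 and 3.90 TPM with auxin, against 63.7 and 75.03 TPM untreated (log2 fold change -3.67 ± 0.22, adjusted p = 5.42e-07). The chemokine receptor Cxcr4 had 10.2 and 9.31 TPM with auxin, against 93.3 and 94.5 TPM untreated (log2 fold change -3.15 ± 0.16, adjusted p = 1.58e-07), while its ligand Cxcl12 was higher (log2 fold change 1.45 ± 0.13). In the apelin pair the same held: the receptor gene Aplnr was lower (log2 fold change -0.72 ± 0.094) and the ligands Apln and Apela were higher (log2 fold changes 2.59 ± 0.18 and 2.96 ± 0.078). Sema6a, a membrane semaphorin, rose to 147 and 155 TPM with auxin, against 21.6 and 18.6 TPM untreated (log2 fold change 2.85 ± 0.16, adjusted p = 3.15e-07).

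Imprinted genes, which are expressed from 1 parental copy, fell more often than they rose. Of 40 tested, 5 were higher and 21 were lower (median -0.44), with 1 kept through the auxin libraries only and 2 through the untreated ones only, and the reads do not separate the copies. Phlda2 (chr7:143501545-143503150), a growth-restraining gene of the placenta, had 193 and 154 TPM with auxin, against 1280.2 and 1310.4 TPM untreated (log2 fold change -2.90 ± 0.10, adjusted p = 1.03e-08). Peg10 (chr6:4747306-4760517), a retrotransposon-derived placental gene, had 283 and 289.7 TPM, against 1321 and 1450.2 TPM untreated (log2 fold change -2.27 ± 0.24, adjusted p = 3.98e-05). Mest, a mesodermal hydrolase, fell by 2.27 ± 0.10 on the log2 scale, and Cdkn1c, which encodes the cell-cycle inhibitor p57, fell to 27.1 and 25.5 TPM with auxin, against 103 and 87.2 TPM untreated (log2 fold change -1.81 ± 0.085, adjusted p = 1.03e-07). The noncoding RNAs Meg3 and Kcnq1ot1 had 5.36 and 5.52 TPM and 1.04 and 1.34 TPM with auxin, against 6.02 and 5.198 TPM and 1.51 and 1.83 TPM untreated, and missed the threshold. Airn, an antisense RNA of the Igf2r locus, and Igf2r were both lower (log2 fold changes -3.07 ± 0.19 and -0.81 ± 0.15); whether the counting used the strand is not given, so reads of the pair may not be separated.

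Genes of the placenta overlap with those of extraembryonic mesoderm. Of 16 trophoblast genes tested, 4 were higher and 10 were lower (median -1.45), with 3 kept through the auxin libraries only. Plac1 had 3.53 and 3.15 TPM with auxin, against 46.6 and 44.3 TPM untreated (log2 fold change -3.42 ± 0.11, adjusted p = 8.38e-09). Cited2 had 56.8 and 52.9 TPM with auxin, against 222 and 224 TPM untreated (log2 fold change -2.005 ± 0.056, adjusted p = 2.85e-09). The markers of mature trophoblast Elf5, Tpbpa and Prl3d1 were listed at 0 in all 4 libraries, and Gcm1 was under 0.5 TPM.

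Neural genes rose in part. Of 16 tested, 10 were higher and 4 were lower (median 1.12). The higher ones include Otx2, Zic2 and other members of the core pluripotency and epiblast lists, so these lists are not separate counts. Nes, the intermediate filament of neural progenitors, had 217 and 225 TPM with auxin, against 55.5 and 55.7 TPM untreated (log2 fold change 1.97 ± 0.058, adjusted p = 4.37e-09). The tubulin Tubb3 had 74.2 and 80.9 TPM with auxin, against 14.2 and 11.9 TPM untreated (log2 fold change 2.49 ± 0.10, adjusted p = 3.97e-08). Olig2, a factor of ventral neural progenitors, had 22.1 and 23.4 TPM, against 5.37 and 6.02 TPM untreated (log2 fold change 1.83 ± 0.19, adjusted p = 3.53e-05). Sox1 and Pax6, the defining factors of neural progenitors, were under 0.3 TPM in all 4 libraries. Of 10 neural crest genes tested, 4 were higher and 5 were lower; Erbb3 rose (log2 fold change 1.78 ± 0.27), and Ets1 and Sox9 fell (log2 fold changes -1.86 ± 0.13 and -0.73 ± 0.11).

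Of 24 p53 targets and apoptosis genes tested, 20 were higher and 1 was lower, with a median of 0.77. Perp, a membrane gene of p53-dependent apoptosis and of desmosomes, had 140.1 and 154 TPM with auxin, against 28.3 and 31.7 TPM untreated (log2 fold change 2.26 ± 0.11, adjusted p = 1.18e-07). Cdkn1a, which encodes the cell-cycle inhibitor p21, had 139 and 137 TPM, against 74.0 and 71.7 TPM untreated (log2 fold change 0.91 ± 0.055, adjusted p = 6.11e-07). Mdm2, the ligase of p53, had 44.9 and 50.2 TPM with auxin, against 25.4 and 27.6 TPM untreated (log2 fold change 0.82 ± 0.12, adjusted p = 0.000343). The apoptosis genes Bcl2l11 and Pmaip1 rose by 1.38 ± 0.11 and 0.86 ± 0.081 on the log2 scale, whereas Bax had 197 and 182 TPM with auxin, against 175 and 171 TPM untreated (adjusted p = 0.139). Sesn1 was the member that fell (log2 fold change -0.58 ± 0.14), with an adjusted p of up to 0.0588 when 1 library was left out. Cdkn2a, a classic Polycomb target that encodes p16 and p19, had 3.91 and 2.69 TPM with auxin, against 2.20 and 2.09 TPM untreated (adjusted p = 0.0751), and missed the threshold.

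Of 22 genes of amino acid supply and the integrated stress response tested, 17 were higher and 1 was lower (median 0.54). Slc7a3, a transporter of basic amino acids, had 135 and 125 TPM with auxin, against 16.2 and 13.7 TPM untreated (log2 fold change 3.05 ± 0.11, adjusted p = 1.64e-08). Slc7a5, a transporter of large neutral ones, had 329.9 and 329 TPM with auxin, against 134 and 132 TPM untreated (log2 fold change 1.30 ± 0.061, adjusted p = 1.05e-07). Atf4, the transcription factor of this response, rose by 0.58 ± 0.051 on the log2 scale, and its targets Trib3 and Chac1 by 1.64 ± 0.15 and 1.90 ± 0.16 on the log2 scale. Of 15 genes of the aryl hydrocarbon receptor and of oxidative stress tested, 10 were higher and 0 were lower (median 0.70). Nqo1, a quinone reductase, had 35.3 and 40.4 TPM with auxin, against 6.95 and 10.7 TPM untreated (log2 fold change 2.01 ± 0.23, adjusted p = 7.28e-05). Gclm, a subunit of the enzyme of glutathione synthesis, had 86.0 and 95.2 TPM with auxin, against 31.2 and 32.0 TPM untreated (log2 fold change 1.49 ± 0.085, adjusted p = 4.07e-07). Cyp1a1, the standard target of the receptor, had 5.02 and 4.54 TPM, against 3.50 and 1.81 TPM untreated (log2 fold change 0.70 ± 0.24, adjusted p = 0.0421), and was no longer called when either auxin library or the second untreated library was left out (adjusted p up to 0.32). Of 20 chaperone genes tested, 11 were higher and 3 were lower (median 0.24), 2 of the higher ones by at least 2-fold; the reticulum chaperone Hspa5 had 607 and 624 TPM with auxin, against 446 and 448 TPM untreated (log2 fold change 0.46 ± 0.045, adjusted p = 2.05e-05).

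The genes of G1 cyclins, DNA replication, glycolysis and oxidative phosphorylation that passed the test differed by less than 2-fold. Of 28 genes of DNA replication and mitosis, 1 was higher and 12 were lower (median -0.12), and Top2a had 431 and 454 TPM with auxin, against 549 and 602 TPM untreated (log2 fold change -0.38 ± 0.083, adjusted p = 0.00452). The G1 list had 4 higher and 5 lower of 15; Ccne1, a cyclin of S-phase entry, rose to 224 and 229 TPM, against 123 and 127 TPM untreated (log2 fold change 0.86 ± 0.058, adjusted p = 1.46e-06), and Ccnd3, a D-type cyclin, fell to 192 and 201 TPM, against 317 and 312 TPM untreated (log2 fold change -0.68 ± 0.044, adjusted p = 9.66e-07). Of 28 glycolysis and hypoxia genes, 3 were higher and 11 were lower (median -0.22), led by the glucose transporter Slc2a3 (log2 fold change -0.91 ± 0.12). Oxidative phosphorylation had 3 higher and 5 lower of 25, cholesterol synthesis 2 and 7 of 24, and MHC class I and the immunoproteasome 1 and 3 of 13. Psmb8, a subunit of the immunoproteasome, fell to 51.2 and 51.8 TPM with auxin, against 82.0 and 92.7 TPM untreated (log2 fold change -0.75 ± 0.073, adjusted p = 2.00e-05). Of 30 ribosomal protein genes 1 was higher and 1 was lower (median -0.02), and of 24 housekeeping genes 5 were higher and 3 were lower (median -0.03), all by less than 2-fold.

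**Figure D3:**
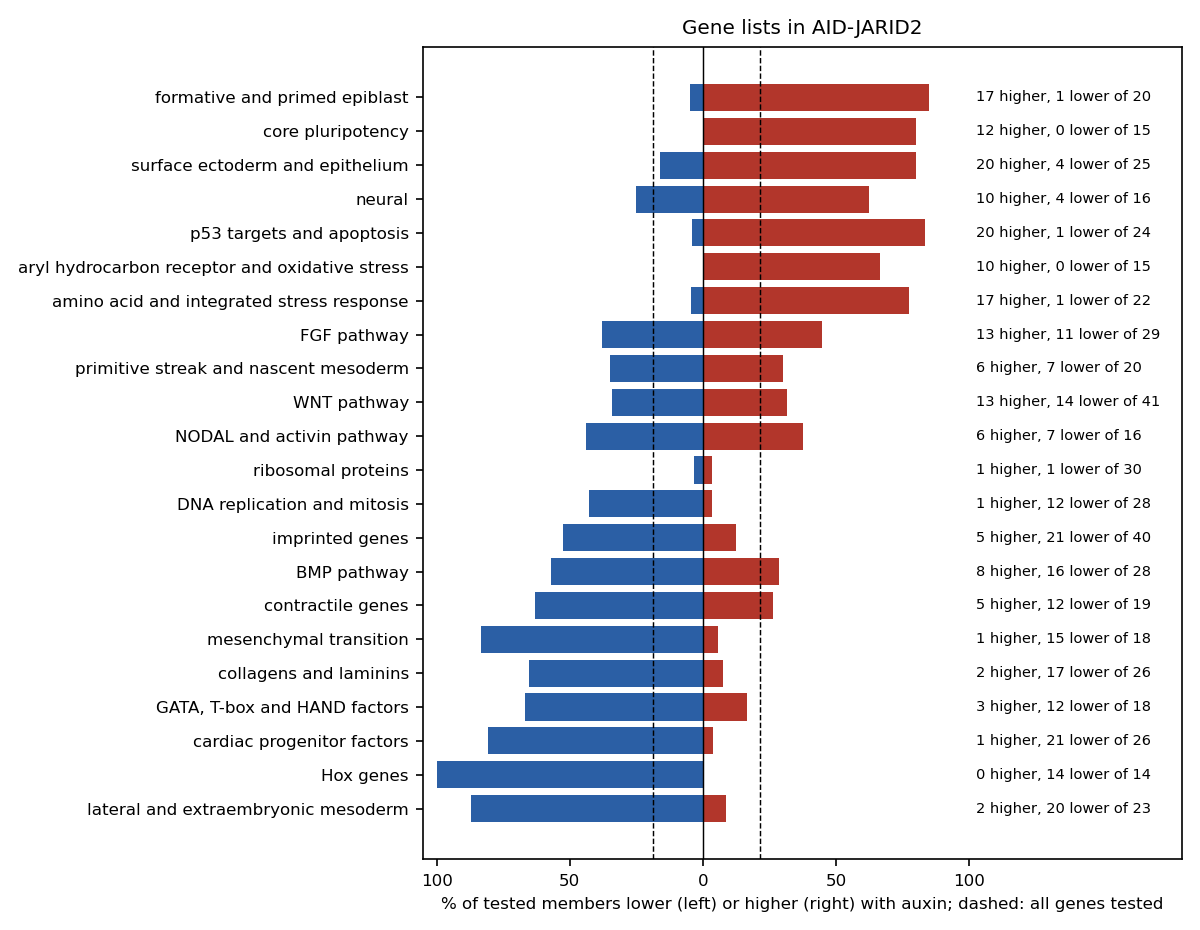
Share of the tested members of 22 gene lists that were higher with auxin (red, to the right) or lower with auxin (blue, to the left), in % of the members tested, with the counts printed at the right; dashed lines mark the shares over all genes tested (21.6% and 18.9%). Epiblast, pluripotency, epithelial, p53 and stress lists lie mostly to the right, and mesoderm, Hox, heart and matrix lists mostly to the left; 12 of the 14 Hox genes passed the filter only through the untreated libraries.

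By amount of RNA, Pou5f1 gained most in mean TPM among the genes open to naming, and H19 and Hand1 lost most. Igfbp4, a secreted inhibitor of WNT and IGF signals, had 144 and 120.2 TPM with auxin, against 883 and 836 TPM untreated (log2 fold change -2.70 ± 0.078, adjusted p = 3.63e-09). Gpc3, an X-linked glypican of growing mesoderm, had 178 and 175 TPM with auxin, against 759.6 and 779 TPM untreated (log2 fold change -2.12 ± 0.044, adjusted p = 8.64e-10). The 2 ferritin chains differed in direction: the light chain Ftl1 had 3548 and 3524 TPM with auxin, against 2631 and 2529.9 TPM untreated (log2 fold change 0.45 ± 0.063, adjusted p = 0.000238). The heavy chain Fth1 had 767 and 713 TPM with auxin, against 1268 and 1242 TPM untreated (log2 fold change -0.76 ± 0.045, adjusted p = 5.36e-07). Actin genes also differed, as Actg1 rose to 3455 and 3395 TPM, against 2648 and 2588 TPM untreated (log2 fold change 0.39 ± 0.043, adjusted p = 5.52e-05), while Actb had 6924 and 6759 TPM, against 7165 and 7026 TPM untreated (adjusted p = 0.327).

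Genes called higher with a mean of at least 5 TPM with auxin and under 1 TPM untreated numbered 36, and 31 genes showed the reverse. Foxd3 headed the first set. Others in it were Tdh, the threonine dehydrogenase of mouse stem cells, with 10.6 and 11.04 TPM with auxin, against 0.512 and 0.230 TPM untreated, the neuronal gene Stmn4, with 14.7 and 13.5 TPM, against 0.614 and 0.964 TPM, and Fosl1, an AP-1 factor, with 8.64 and 12.002 TPM, against 0.452 and 0.633 TPM. In the second set were Tdo2, a tryptophan dioxygenase, with 0.217 and 0.374 TPM with auxin, against 9.66 and 8.71 TPM untreated, the connexin gene Gjb2, with 0.812 and 0.826 TPM, against 11.1 and 12.8 TPM, and Popdc2, a membrane gene of heart muscle, with 0.472 and 1.35 TPM, against 9.64 and 9.28 TPM. Genes of both sets were chosen for their levels, and no test is read from them.

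The calls were spread over levels and chromosomes. Of the 303 genes with a mean under 1 TPM 55.4% passed, of those between 1 and 5 TPM 37.1%, and of those with 100 TPM or more 46.1%. Genes with a mean under 1 TPM were tested only if 2 of the 4 libraries reached 1 TPM. That filter favors genes that differ between the groups, so their share is no result about low genes. At least 2-fold higher genes made up 4.82% of chromosome 8 to 9.49% of chromosome X, and at least 2-fold lower ones 2.05% of chromosome 17 to 6.80% of chromosome X.

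Some genes already differed in level between untreated AID-JARID2 cells and untreated cells of the other 2 lines of the series, in which the PRC2 subunits SUZ12 or MTF2 carry the degron. Untreated AID-JARID2 libraries had 307 and 297 TPM of T, against 34.2 and 32.6 TPM in untreated SUZ12-AID and 32.2 and 28.5 TPM in untreated MTF2-AID. Mesp1 stood at 461 and 429 TPM in untreated AID-JARID2, against 58.8 and 46.9 TPM in untreated SUZ12-AID and 37.9 and 41.0 TPM in untreated MTF2-AID. Both genes were thus several times higher in untreated AID-JARID2 cells. Pou5f1 stood at 335 and 316 TPM in untreated AID-JARID2, against 113 and 90.5 TPM in untreated SUZ12-AID and 107 and 109 TPM in untreated MTF2-AID. Other genes were closer. Hand1 stood at 1884 and 1832 TPM in untreated AID-JARID2, against 2291 and 2552 TPM in untreated SUZ12-AID and 1369.7 and 1352 TPM in untreated MTF2-AID, and Utf1 at 31.7 and 29.8 TPM in untreated AID-JARID2, against 36.8 and 32.6 TPM and 52.8 and 57.9 TPM in these 2 lines. The part of the untreated levels in the comparison that follows was not tested.

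**Figure D4:**
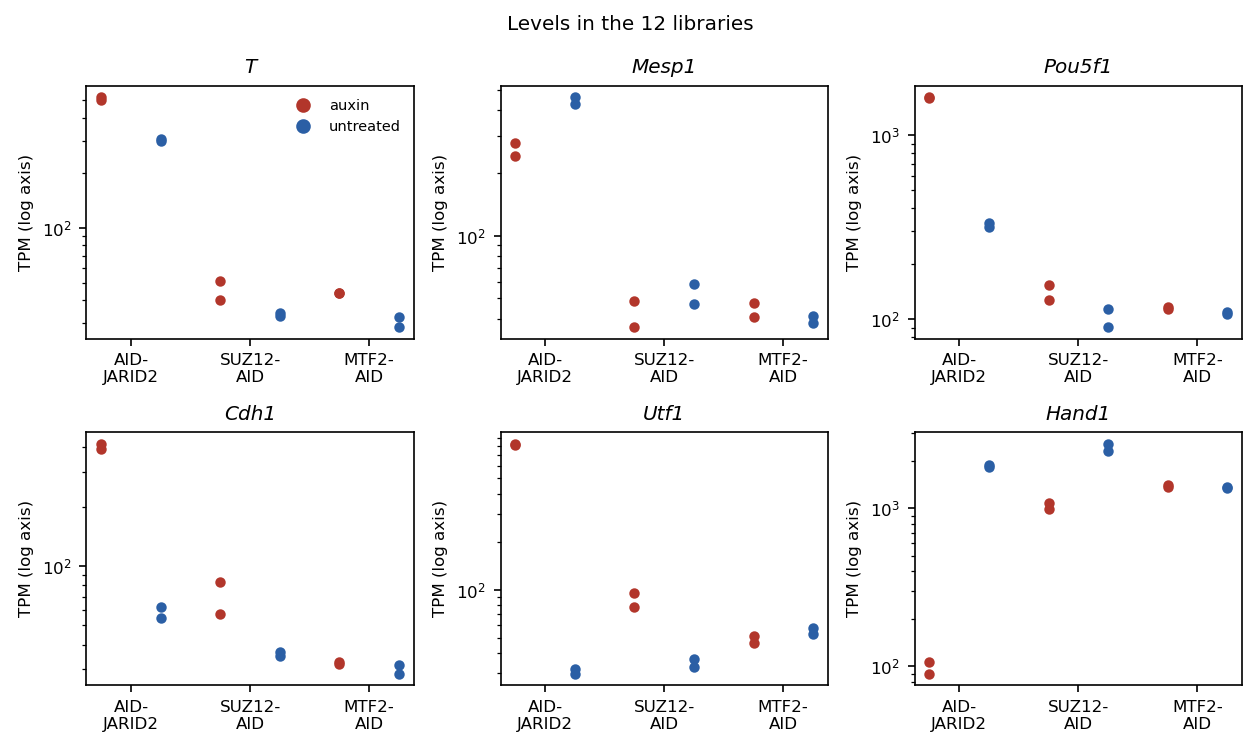
TPM of 6 genes in all 12 libraries on log axes, by line, with auxin (red) at the left of untreated (blue) in each line. T and Mesp1 were higher in all 4 AID-JARID2 libraries than in the other lines, and Utf1 and Cdh1 were highest, and Hand1 lowest, in AID-JARID2 with auxin.

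The auxin effect in AID-JARID2 was set against that in the other lines by a test of the difference itself. It differed from the effect in SUZ12-AID for 3635 genes (25.7%) and from that in MTF2-AID for 3833 genes (27.1%). The near equality of these counts depends on the spread that all lines share in the fit. With a variance weight for each line, lowest for SUZ12-AID, the counts were 2890 and 5427. In SUZ12-AID, 1961 of the same 14137 genes were higher with auxin (13.9%) and 607 were lower (4.29%), and in MTF2-AID 7 genes passed (0.0495%). Of the 888 genes at least 2-fold higher in AID-JARID2, 452 (50.9%) were also higher in SUZ12-AID, which is 23.05% of the genes higher there, and 7 were lower. The difference passed for 497 of them (56.0%). Of the 635 genes at least 2-fold lower, 107 (16.9%) were also lower in SUZ12-AID, which is 17.6% of the genes lower there, and 84 were higher. The difference passed for 584 (92.0%). Against MTF2-AID the difference passed for 811 of the 888 genes (91.3%) and 605 of the 635 (95.3%). These genes were chosen by the AID-JARID2 comparison, which is a part of the difference, so the shares are a description.

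On the log2 scale Pou5f1 rose by 2.29 ± 0.10 in AID-JARID2 and by 0.46 in SUZ12-AID (difference 1.83 ± 0.15, adjusted p = 1.35e-05), and Cdh1 by 2.77 ± 0.14 and 0.92 (difference 1.85 ± 0.20, adjusted p = 0.000101). For other genes that rose in both lines the difference missed the threshold, which does not show that the effects are equal: this held for Cd34 (log2 fold changes 1.88 ± 0.16 in AID-JARID2 and 2.21 in SUZ12-AID, adjusted p = 0.356; a gene kept through the auxin libraries only in AID-JARID2) and for Cdkn1a (log2 fold changes 0.91 ± 0.055 and 0.83, adjusted p = 0.509). Hand2 fell in AID-JARID2, and in SUZ12-AID it had 168 and 151 TPM with auxin, against 48.3 and 48.2 TPM untreated (difference -4.93 ± 0.15, adjusted p = 2.98e-08). Krt8 fell in AID-JARID2, and in SUZ12-AID it had 1556 and 1659 TPM with auxin, against 1054 and 1036 TPM untreated (difference -2.20 ± 0.059, adjusted p = 2.12e-08). Hoxb6 fell in both lines, by 2.36 ± 0.17 on the log2 scale in AID-JARID2 and with a log2 fold change of -1.95 in SUZ12-AID (adjusted p of the difference = 0.257), and it is one of the Hox genes kept only through the untreated AID-JARID2 libraries.

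**Figure D5:**
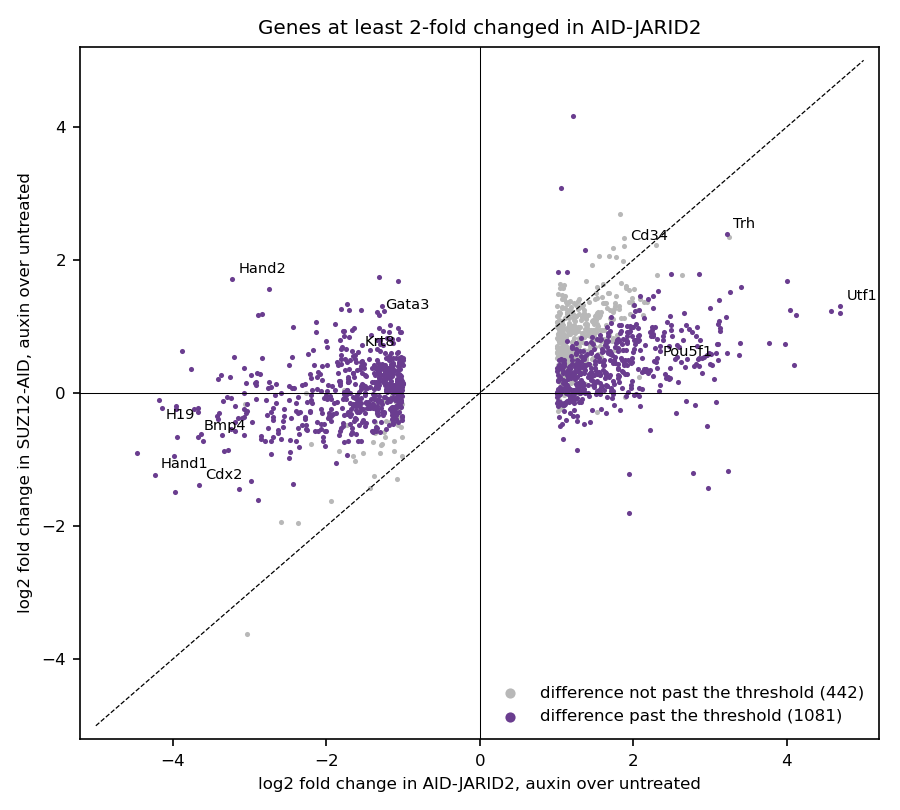
Log2 fold change of auxin over untreated in AID-JARID2 (horizontal axis) and in SUZ12-AID (vertical axis) for the 1523 genes at least 2-fold changed in AID-JARID2, purple where the difference between lines passed the threshold (1081) and grey where it did not (442); the dashed line marks equal effects. Of the 635 genes on the left, 107 were lower and 84 higher in SUZ12-AID, and Hand2 and Gata3 lie above 0 there.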

How the data were processed

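PolyA RNA of each culture was made into stranded dUTP libraries, per the labels' protocols. The authors deposited TPM values per gene symbol, with 12 library columns; reads were aligned to mm10 with STAR 2.6.1d, per the submitters' processing notes, while the counting program, the annotation and its strand setting were not given in the sources used here. TPM carries no depth of its own, but the steps of each gene's deposited TPM values gave whole reads for 100% of values (within 0.05 reads); a gene's reads are the smallest whole numbers in these ratios, so totals are lower limits. Log2(TPM + 1) of the genes that reached 1 TPM in 2 or more AID-JARID2 libraries was fitted with limma 3.58.1 (R 4.3.3), with 1 term for each of the 6 groups of the series, a trend in the prior, 6 residual degrees of freedom and two-sided p-values adjusted by the Benjamini-Hochberg method over all 14137 genes. Differences between lines were contrasts of that fit. The fit was run on simulated reads for the AID-JARID2 contrast only, with the same spread in every line. That run therefore does not test the differences between lines. Positions are from GENCODE vM21 and promoters from RefSeq.

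The members and the 52 gene lists were chosen with earlier results of these data known. Genes were named if they were PRC2 subunits, or among the 6 largest changes of a list that passed the threshold without overlap and with at least 5 TPM, or among the 12 largest changes overall by fold or by TPM, or among the 10 largest with a mean under 1 TPM in one group and at least 5 TPM in the other. A further 81 genes, which missed the threshold, moved against their list or fill another role in a pathway, were named after their values were seen. Placeholder symbols and short RNAs were counted and not named, and some genes that the rule would name are not reported here. The alternatives were other pseudocounts, filters, scalings, variance models, sets of libraries, a replicate block, recovered reads and leaving out each library.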

Additional observations from a re-analysis of the deposited data

Results flagged for a closer look

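The auxin effect in AID-JARID2 differed from that in SUZ12-AID for 3635 genes and from that in MTF2-AID for 3833 genes, by the test of the difference in limma. Among them, 14 genes with a usable symbol fell at least 2-fold in AID-JARID2 and rose at least 2-fold in SUZ12-AID. With all symbols counted the number was 17. Of the 635 genes at least 2-fold lower in AID-JARID2, 13.2% were called higher in SUZ12-AID at any size. The share over all genes tested was 13.9%, so the number of such genes is no result in itself. For Hand2 the difference in log2 fold change was -4.93. Hand2 had 4.53 and 3.83 TPM with auxin, against 51.6 and 43.5 TPM untreated, in AID-JARID2, and 168 and 151 TPM with auxin, against 48.3 and 48.2 TPM untreated, in SUZ12-AID. The difference was -4.02 for Gjb2, a connexin, -3.19 for Myl4, an atrial myosin light chain, and -2.92 for Crabp1, which binds retinoic acid. Myl4 had 2.93 and 2.07 TPM with auxin, against 14.2 and 14.1 TPM untreated, in AID-JARID2, and 50.5 and 44.3 TPM, against 25.8 and 19.003 TPM, in SUZ12-AID. Among signalling genes the difference was -2.96 for Bmp6, -3.07 for the neurotrophic receptor gene Gfra3, -2.79 for the parathyroid hormone receptor gene Pth1r and -2.76 for Lgr5, a receptor of R-spondins, whose fall in AID-JARID2 was no longer called when 1 of 2 libraries was left out in turn (adjusted p = 0.062 and 0.0657). It was -2.49 for the transcription factor gene Gata3. For others of them it was -2.55 (Ccdc3), -2.59 (Usp18), -2.49 (Serpinb6b) and -2.19 (Dmgdh). Gjb2, Gfra3, Ccdc3 and Serpinb6b passed the filter only through the untreated AID-JARID2 libraries, so their values there could only be lower with auxin. In SUZ12-AID, Gjb2 had 1.85 and 2.90 TPM with auxin, against 0.618 and 0.322 TPM untreated. Ccdc3, Serpinb6b, Dmgdh and Lgr5 were also under 2 TPM in untreated SUZ12-AID, so these rises start from low levels. In the reverse direction 1 gene was found, with a placeholder symbol. No group has enough libraries for a test of single outlying samples.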

How the results depend on the processing

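No result reversed under any alternative. The counts of 3052 higher, 2668 lower, 888 at least 2-fold higher and 635 at least 2-fold lower genes stayed within 1.5 times under every alternative but a pseudocount of 5 TPM, which left 346 and 340 genes at least 2-fold higher and lower; a larger pseudocount shrinks folds of low genes by construction. Leaving out 1 library gave 2043 to 2255 higher, 1913 to 1960 lower, 826 to 897 at least 2-fold higher and 635 to 650 at least 2-fold lower genes, and 2530 to 2668 and 2782 to 2977 genes that differed from SUZ12-AID and MTF2-AID; the group with a lone library is then assumed to vary like the others. Replicate numbers do not pair the libraries (deviations of same-numbered libraries from their group means correlated at 0.010 across genes); with the number as a block, the counts were 3180, 2769, 891 and 638, with 3815 and 4079 differing from the other lines. The share of higher genes among those called was 50.6% to 55.7% over all alternatives and 53.4% as reported, and no scaling moved the median of all genes by more than 0.1. Of the 354 genes named or open to naming, leaving out 1 library ended 21 to 26 calls, and no other alternative ended more than 11. Those described are Ezh1, Eed, Suz12, Aebp2, Tet2, Grhl3, Spry1, Tgfbr2, Sesn1, Cyp1a1 and Lgr5, with the largest adjusted p without 1 library for Cyp1a1 (0.32), whose call also ended under 5 other alternatives, as that of Tgfbr2 did under 2. Conversely Ezh2, Eomes, Dnmt1, Actc1, Kcnq1ot1, Cdkn2a, Actb and Bax, which missed the threshold, passed it under 1 to 4 alternatives, and Eomes had an adjusted p of 0.00559 with only the 4 AID-JARID2 libraries in the fit; the block changed no call of a named gene. Low genes also limit the comparison, as a fold there rests on few reads. In addition, 459 genes passed the filter only through the auxin libraries and 289 only through the untreated ones.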

Other observations

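Endothelial and blood genes showed no common direction, and of all genes tested 21.6% were higher and 18.9% lower. Of 17 endothelial genes tested, 7 were higher and 5 were lower (median log2 fold change 0.02), with 2 kept through the auxin libraries only and 1 through the untreated ones only. Etv2, the factor that starts the endothelial and blood lineages, had 5.35 and 5.23 TPM with auxin, against 11.7 and 14.6 TPM untreated (log2 fold change -1.17 ± 0.15, adjusted p = 0.000127), and Pecam1, an adhesion gene of endothelium, had 3.01 and 2.35 TPM, against 18.0 and 20.6 TPM untreated (log2 fold change -2.47 ± 0.12, adjusted p = 9.75e-08). Cd34, a sialomucin of endothelium and of blood progenitors, had 5.08 and 5.13 TPM with auxin, against 0.735 and 0.576 TPM untreated (log2 fold change 1.88 ± 0.16, adjusted p = 9.42e-06), and Esam, an endothelial adhesion gene, had 3.14 and 5.98 TPM, against 0.929 and 0.463 TPM untreated (log2 fold change 1.68 ± 0.24, adjusted p = 0.000329); both passed the filter only through the auxin libraries. Of 9 blood genes tested, 2 were higher and 2 were lower, which is near the shares over all genes and no result about blood genes. Runx1, the factor of definitive blood, had 1.42 and 1.59 TPM with auxin, against 4.49 and 4.13 TPM untreated (log2 fold change -1.08 ± 0.21, adjusted p = 0.00215). The blood markers Hbb-bh1, Hba-x, Gata1 and Ptprc stayed under 1 TPM in all 4 libraries.

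Other derivatives of mesoderm and endoderm were mixed as well, beside shares of 21.6% higher and 18.9% lower over all genes tested. These lists are small, and their counts are a description. Of 9 genes of intermediate mesoderm and kidney tested, 4 were higher and 3 were lower, with 2, Wt1 among them, kept through the auxin libraries only; Wt1, a factor of kidney and epicardium, had 3.62 and 4.10 TPM with auxin, against 0.685 and 0.558 TPM untreated (log2 fold change 1.58 ± 0.20, adjusted p = 0.000117), and Six2, a factor of nephron progenitors, had 11.9 and 10.8 TPM, against 20.8 and 20.7 TPM untreated (log2 fold change -0.82 ± 0.090, adjusted p = 4.96e-05). Of 11 paraxial genes tested, 3 were higher and 4 were lower; Lfng, a glycosyltransferase of the segmentation clock, rose (log2 fold change 0.84 ± 0.11). Of 12 endoderm genes tested, 2 were higher and 5 were lower. Trh, a hormone precursor gene also expressed in early embryonic endoderm, had 61.4 and 58.4 TPM with auxin, against 5.15 and 5.93 TPM untreated (log2 fold change 3.22 ± 0.15, adjusted p = 9.75e-08), and Apoe fell (log2 fold change -1.14 ± 0.072). Of 9 germline genes tested, 3 were higher and 1 was lower, all 4 with means under 5 TPM. Among sox and forkhead factors, 11 of 22 were higher and 5 were lower; Foxo1, a factor that insulin signals restrain, had 39.9 and 40.5 TPM with auxin, against 9.64 and 8.90 TPM untreated (log2 fold change 2.005 ± 0.12, adjusted p = 5.40e-07). Spp1, which encodes the secreted protein osteopontin, was among the largest increases, at 18.8 and 24.2 TPM with auxin, against 1.39 and 1.30 TPM untreated (log2 fold change 3.25 ± 0.27, adjusted p = 6.52e-06).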
